A study of Mus musculus with 12 samples.

Results

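The 3 peak lists described here map mono-, di- and trimethylated lysine 4 of histone H3 (H3K4me1, H3K4me2 and H3K4me3) in C2C12 cells treated with S2101, and the marks are compared with each other. C2C12 is a mouse myoblast line that forms myotubes once serum is lowered. S2101 inhibits LSD1, the demethylase Kdm1a. The cells received 10 µM S2101 together with the change to horse serum and were fixed 48 h later, on day 2, and the labels of these 3 samples call them differentiating myoblasts, while the input of experiment 2 is labelled differentiated. Chromatin was sonicated and precipitated with 1 antibody per mark before sequencing (ChIP-seq). The lists hold 59432 of the 134900 peaks in the 6 lists at hand and belong to 3 of the 12 samples of the series. No list of vehicle-treated cells was used, so nothing below measures an effect of the inhibitor. The labels do not say whether the libraries came from 1 culture, and with peak positions alone the cell type could not be checked against marker genes.

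Lysine 4 can carry up to 3 methyl groups, added stepwise by enzymes of the MLL/SET1 (COMPASS) family. H3K4me3 is the classical mark of active promoters, H3K4me1 prevails at enhancers and beside promoters, and H3K4me2 is found at both. LSD1 removes methyl groups from the mono- and dimethylated but not from the trimethylated state. Around an active start site the states are commonly arranged in shells, with the trimethylated state at the centre and the monomethylated state outermost. The 3 lists allow this arrangement to be measured in cells in which LSD1 is inhibited.

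Each mark has 1 library, and H3K4me1 and H3K4me2 come from experiment 1 while H3K4me3 comes from experiment 2. For any comparison with H3K4me3, the mark and the experiment therefore cannot be told apart. The number of reads behind the lists is unknown, there is no replicate check, and no test was made. Intervals are 95% Wilson intervals and cover counting error only. The spread over the 19 autosomes is given beside them, although chromosomes of 1 library are not replicates. All positions are in the mouse build mm9, counted from 1, and regions are named by position because no gene annotation or sequence of that build was used here. Scores are the authors' peak-caller values and rank peaks within 1 list only.

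The marks differed in peak width before any overlap was counted. H3K4me1 was listed in 20664 peaks with a median width of 384 bp (quartiles 296 and 518 bp), which together covered 9.34 Mb. H3K4me2 had 24444 peaks with a median of 552 bp (quartiles 392 and 796 bp), covering 15.9 Mb. H3K4me3 had the fewest peaks, 14324, but the widest, with a median of 1737 bp (quartiles 1155 and 2361 bp), and covered 26.8 Mb. The H3K4me1 peaks were thus the narrowest and the H3K4me3 peaks the widest. A wide peak can contain a narrow one more easily than the reverse, so every nesting value below also reflects these widths. Most H3K4me3 scores sit at a ceiling: 59.8% reached 3100 or more, compared with 12 H3K4me2 peaks and no H3K4me1 peak. Peaks of 1 list also lay at different spacing. The median gap to the next peak of the same mark was 6517 bp for H3K4me1, 8915 bp for H3K4me2 and 48881 bp for H3K4me3, and 30.1% of H3K4me2 gaps were under 500 bp, against 5.12% of H3K4me3 gaps.

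Overlapping and touching peaks of the 3 marks joined into 34889 regions, which fell mainly into regions of H3K4me1 alone and regions of H3K4me2 with H3K4me3. H3K4me1 by itself made up 18083 regions, 51.8% (95% Wilson interval 51.3 to 52.4%), with a median width of 384 bp. H3K4me2 with H3K4me3 and no H3K4me1 made up 11001, 31.5% (range over autosomes 16.4 to 44.6%), with a median width of 1851 bp. All 3 marks were present in 1578 regions, 4.52% (4.31 to 4.75%; range over autosomes 2.16 to 7.89%). The mixed class that lacks H3K4me2, H3K4me1 with H3K4me3, held 64 regions, 0.183% (0.144 to 0.234%), and H3K4me1 with H3K4me2 held 669, 1.92% (1.78 to 2.07%). Where H3K4me1 and H3K4me3 shared a region, that region nearly always held H3K4me2 as well. H3K4me2 was common on H3K4me3 in any case: it was met by 87.2% of H3K4me3 peaks without H3K4me1 and by 95.8% of those with it. Joining can also put peaks into a region that do not overlap each other. H3K4me2 alone (1870 regions, median 348 bp) and H3K4me3 alone (1624 regions, median 815 bp) were narrow. Counted as length, the order changed: regions of H3K4me2 with H3K4me3 summed to 21.9 Mb, H3K4me1-only regions to 8.12 Mb and regions with all marks to 3.65 Mb.

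**Figure D1:**
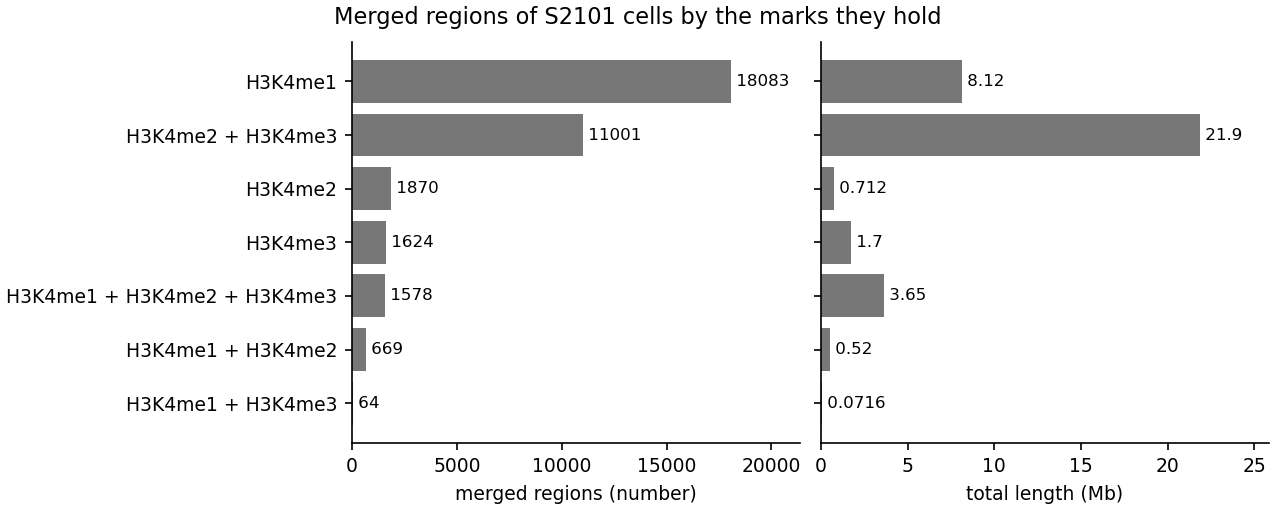
Merged regions of the 3 S2101 lists by the marks they hold, as number of regions (left) and total length in Mb (right). Each bar is 1 combination of marks. H3K4me1-only regions lead in number (18083) and regions of H3K4me2 with H3K4me3 in length (21.9 Mb).

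Counted by base, H3K4me2 was almost a subset of H3K4me3. The 3 lists together covered 36.7 Mb. Of all H3K4me2 bases 14.2 Mb (89.4%) lay under H3K4me3 without H3K4me1, and 0.36 Mb (2.26%) under both other marks. H3K4me2 bases outside both others summed to 1.09 Mb, 6.85% of the mark. H3K4me3 kept 44.9% of its own length free of either other mark. H3K4me1 was the reverse case, with 8.57 Mb, 91.8% of its length, under no other mark. H3K4me1 and H3K4me3 shared 0.530 Mb, of which 0.36 Mb also carried H3K4me2. For scale, each share can be read against the portion of the chromosomes that the second mark covers, up to the last peak on each chromosome (2641 Mb in all). H3K4me3 covered 1.01% of that length and 91.65% of H3K4me2 bases, a ratio of 90.4. It covered 5.67% of H3K4me1 bases, a ratio of 5.60, and H3K4me2 covered 6.42% of H3K4me1 bases, a ratio of 10.6. All 3 pairs thus shared more bases than the covered length alone would give, and the pair with the largest ratio was H3K4me2 with H3K4me3. These ratios are against the whole length and not the neighbourhood. H3K4me3 covered 6.37% of H3K4me1 midpoints and still 3.94% of positions 10 kb to their left. For H3K4me2 around H3K4me1 these values were 6.78% and 2.71%, and for H3K4me3 around H3K4me2 88.3% and 3.26%.

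Overlap by peak, counted from 1 shared bp, again put H3K4me2 with H3K4me3 far above the pairs with H3K4me1. H3K4me3 was met by 89.5% of H3K4me2 peaks (range over autosomes 83.7% on chromosome 15 to 92.4% on chromosome 7), and 88.2% of H3K4me3 peaks met H3K4me2 (81.6% on chromosome 7 to 94.9% on chromosome 15). H3K4me1 peaks met H3K4me2 in 10.4% of cases and H3K4me3 in 8.68%. In the other direction 8.51% of H3K4me2 peaks and 11.3% of H3K4me3 peaks met H3K4me1, so the order of those 2 pairs depended on the direction. It also turned with lists of equal length, where H3K4me1 met H3K4me2 in 6.16% and H3K4me3 in 8.15% of cases. These overlaps are measured from the lists as deposited, and they move with the score threshold. With scores of 200 or more only, 2.41% of H3K4me3 peaks met H3K4me1, and 79.5% met H3K4me2. That threshold kept 5315 H3K4me1, 15646 H3K4me2 and 13034 H3K4me3 peaks. It cut the H3K4me1 list most, so fewer H3K4me1 peaks were left to be met. Larger shared portions were rarer for the wide mark: H3K4me2 covered at least 50% of the peak in 60.9% of H3K4me3 peaks, whereas H3K4me3 covered at least 50% in 88.3% of H3K4me2 peaks.

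H3K4me2 was nested inside H3K4me3. Among 21923 overlapping pairs of an H3K4me2 and an H3K4me3 peak, the H3K4me2 peak lay wholly inside in 19052 (86.9%), the 2 peaks overlapped at an end in 2732 (12.5%), and H3K4me2 contained H3K4me3 in 139 (0.634%). The H3K4me2 peak was 0.291 times as wide as its H3K4me3 partner at the median. Over the entire H3K4me2 list, 77.9% of peaks had both ends inside an H3K4me3 peak (77.4 to 78.5%), and chromosome 15 stood lowest with 67.3%. H3K4me1 was not nested in this way. Of 1811 pairs of H3K4me1 and H3K4me3, 1025 (56.6%) overlapped at an end, with a median of 219 bp shared, and 778 (43.0%) had H3K4me1 inside. Of 2203 pairs of H3K4me1 and H3K4me2, 1554 (70.5%) overlapped at an end, 498 (22.6%) had H3K4me1 inside and 151 (6.85%) had H3K4me2 inside. H3K4me1 peaks were 0.207 times as wide as their H3K4me3 partners and 0.662 times as wide as their H3K4me2 partners. H3K4me1 was thus narrower relative to H3K4me3 than H3K4me2 was, yet lay across an end more often.

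Nearly as many H3K4me3 peaks held several H3K4me2 peaks as held 1 or none. No H3K4me2 peak was found on 1692 H3K4me3 peaks (11.8%), 1 on 5743 (40.1%), 2 on 5136 (35.9%), 3 on 1303 (9.10%), 4 on 324 (2.26%) and 5 or more on 126 (0.880%). Together 48.1% held at least 2 (47.3 to 48.9%). This share moved with the weak H3K4me2 peaks: it was 29.1% with scores of 200 or more and 22.7% with lists of equal length. The number followed the width of the H3K4me3 peak. Median H3K4me3 widths were 814 bp without H3K4me2, 1343 bp with 1 H3K4me2 peak, 2063 bp with 2, 2799 bp with 3 and 3657 bp with 4. The portion of the H3K4me3 peak that H3K4me2 covered changed less, from a median of 57.4% with 1 peak to 60.8% with 2 and 66.3% with 4. Per kilobase of H3K4me3, peaks over 500 and up to 1000 bp wide held 0.978 H3K4me2 peaks and those over 4000 bp held 0.680.

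The place of H3K4me2 within H3K4me3 depended on the width of the H3K4me3 peak. In H3K4me3 peaks over 500 and up to 1000 bp wide and in those up to 1500 bp, H3K4me2 was listed most often at the centre, in 61.9% and 73.6% of peaks. In peaks over 2000 and up to 3000 bp the centre was a dip, with 47.1% covered, and the maximum of 74.1% lay 22.5% of the width in from the ends. Peaks over 1500 and up to 2000 bp were intermediate, with 60.9% at the centre and a maximum of 69.7%. Above 3000 bp the centre stood at 53.4% and the maximum of 67.2% at 17.5% of the width from the ends. The outermost 5% of the width at either end carried H3K4me2 in 14.5 to 24.5% of cases across these classes. Taken over all peaks of a class, H3K4me2 thus had a central maximum in narrow H3K4me3 peaks and shoulders on both sides in wide ones. Layouts of single peaks were not counted here.

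**Figure D2:**
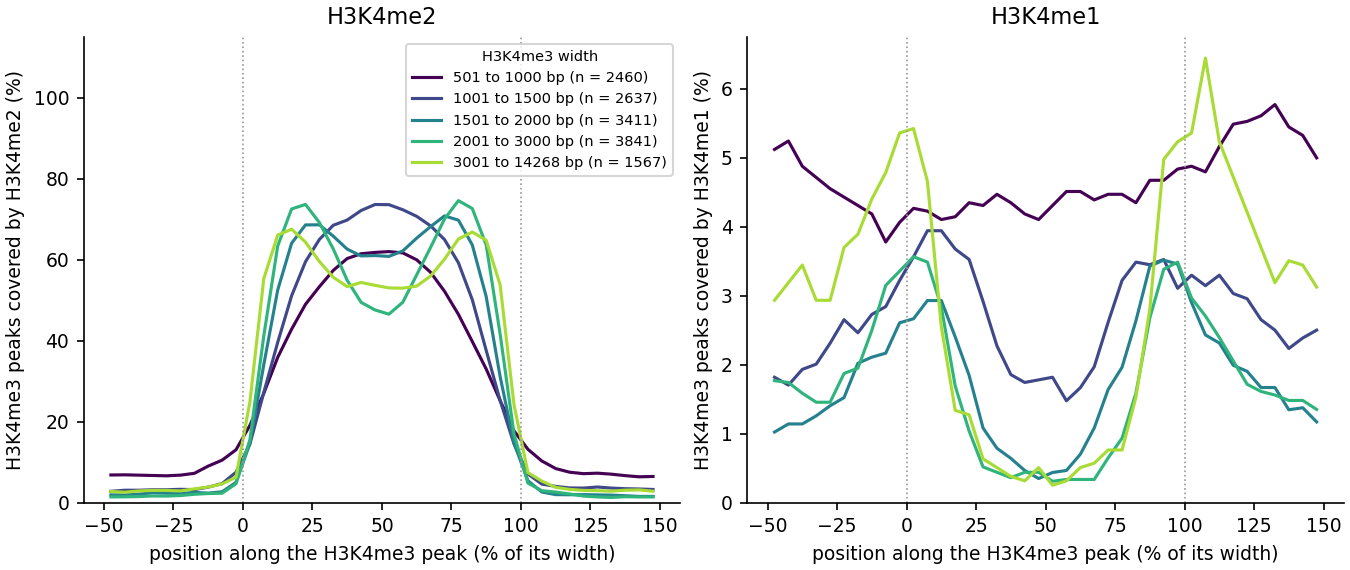
Share of H3K4me3 peaks covered by H3K4me2 (left) and H3K4me1 (right) at each position along the peak, from 50% of the width before the start (position 0) to 50% after the end (position 100), with 1 line per class of H3K4me3 width. H3K4me2 has 1 central maximum in peaks of up to 1500 bp and 2 shoulders in wider ones, with 47.1% at the centre of peaks over 2000 and up to 3000 bp, and H3K4me1 is lower at the centre than at the ends in every class.

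Lone H3K4me2 peaks also lay farther from the centre in wide H3K4me3 peaks. Placement was measured as the distance between midpoints, divided by the largest distance the 2 widths allow, so that 0 is centred, 1 is flush with an end and even placement has a median of 0.5. For 4553 H3K4me2 peaks alone in their H3K4me3 peak and wholly inside it, the median was 0.451 (quartiles 0.234 and 0.681; range over autosomes 0.393 to 0.522). In H3K4me3 peaks of 1000 to 1500 bp it was 0.396 (n = 1474), in those of 2000 to 3000 bp 0.586 (n = 679) and above 3000 bp 0.635 (n = 132). Placements in the outermost of 3 equal parts of that scale made up 26.3% of all such lone peaks, and 47.0% of those in H3K4me3 peaks above 3000 bp. The overall median is close to even placement and is not stable: it was 0.525 with scores of 200 or more, a list in which a peak counts as alone once its weaker neighbour is dropped. Lone peaks missed the H3K4me3 end by a median of 150 bp on the near side and 433 bp on the far side.

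Where an H3K4me3 peak held exactly 2 H3K4me2 peaks, they stood on opposite sides of its midpoint in 4798 of 5136 cases (93.4%, 92.7 to 94.1%). Both lay wholly inside in 4112 cases (80.1%), and both reached past an H3K4me3 end in 64. The outer H3K4me2 ends stopped a median of 171 bp inside the H3K4me3 ends. The gap between the 2 peaks had a median of 322 bp (quartiles 123 and 610 bp) and contained the H3K4me3 midpoint in 47.2% of cases (45.8 to 48.5%). The pair was unequal, with median widths of 444 bp for the narrower and 756 bp for the wider peak and median scores of 199 for the lower and 408 for the higher. At these widths, with the 322 bp gap, the pair fills most of an H3K4me3 peak of the median 2063 bp. Such widths can favour opposite sides, and the share that the widths alone would give was not tested. Opposite sides are therefore not read as a separate result on placement. With no strand or gene attached, it is not known which of the 2 peaks faces the gene body. In H3K4me3 peaks with 3 H3K4me2 peaks, the middle one was as wide as the outer ones at the median, 507 and 526 bp, and had a similar score, 242 and 250.

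The H3K4me3 peaks with the most H3K4me2 peaks show how H3K4me2 was listed across wide domains. The first, on chromosome 15 (85499058 to 85513215, 14158 bp), held 11 H3K4me2 peaks that covered 11364 bp of it. The strongest of these ran from 85503841 to 85506524 with a score of 1939.48. An uncovered stretch lay between the peak ending at 85501215 and the next, starting at 85503275. Other neighbours nearly touched, such as the peak ending at 85507100 and the next, starting at 85507106. Gaps were short in general: with 4 H3K4me2 peaks in an H3K4me3 peak, their median was 136 bp. Whether such neighbours are separate blocks or 1 block split by the caller was not tested. The second, on chromosome 3 (88419592 to 88429413, 9822 bp), held 10 peaks over 7576 bp. Others were on chromosome 5 (123585134 to 123594952, 9 peaks over 7667 of 9819 bp), chromosome 17 (34253264 to 34261374, 9 peaks over 4535 of 8111 bp) and chromosome 13 (63373617 to 63381581, 9 peaks over 5859 of 7965 bp). The H3K4me3 peaks on chromosomes 5 and 17 had no H3K4me1, the nearest lying 59940 and 46099 bp away. The other 3 had 1 or 2 H3K4me1 peaks that covered between 263 and 500 bp of them, all with scores under 200.

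Outward from the ends of the H3K4me3 peaks, the 2 other marks were stacked at different distances. H3K4me2 was most frequent 500 bp inside the end, where it covered 71.3% of positions (n = 22916 ends). It stood at 27.2% 100 bp inside, at 10.5% at the first base outside and at 4.95% 100 bp outside. H3K4me1 was most frequent 100 bp inside the end, at 3.87%, and stood at 2.76% 500 bp outside, 1.88% at 1000 bp and 1.30% at 5000 bp. Deep inside the peak, 1000 bp from the end, H3K4me1 covered 0.480% of positions (n = 10828 ends). That was less than the 1.30% at 5000 bp outside, which counts all 28648 ends. Narrow H3K4me3 peaks do not reach so deep. In those over 500 and up to 1000 bp wide, H3K4me1 covered 4.21% at the centre and 4.55% at the ends. Pooled over all widths, H3K4me1 therefore formed a low ridge over the H3K4me3 boundary, outward of the H3K4me2 maximum.

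**Figure D3:**
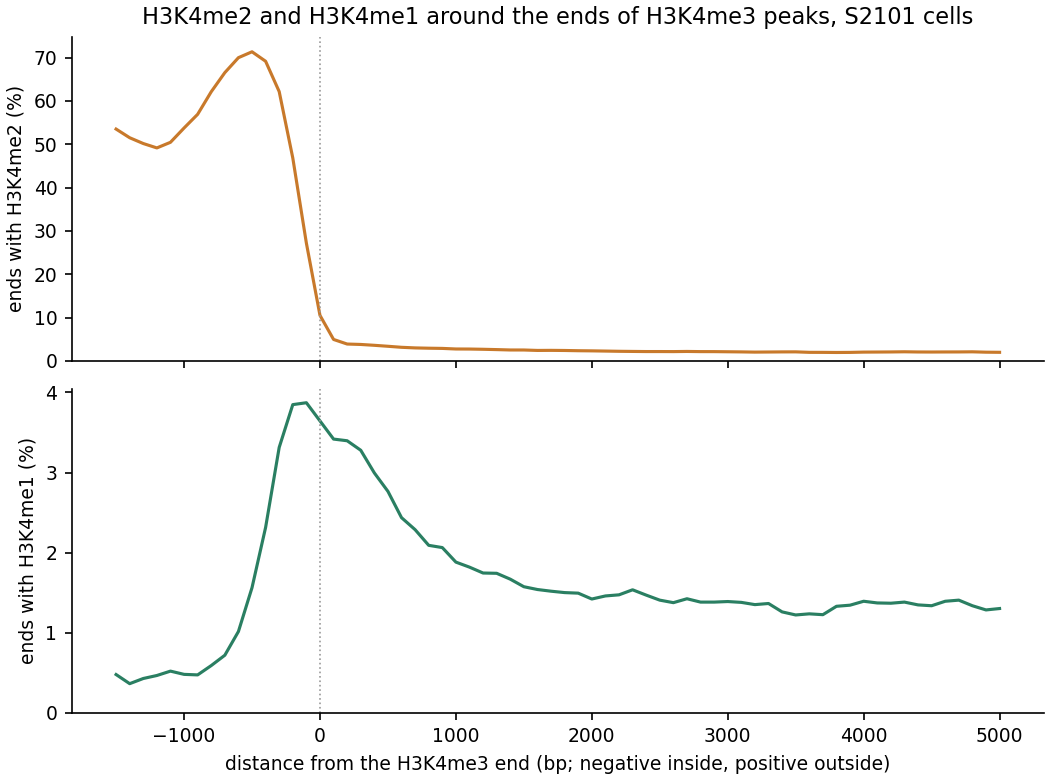
Share of H3K4me3 peak ends (both ends pooled) that carry H3K4me2 (upper panel) or H3K4me1 (lower panel) at each distance from the end in bp, negative inside the peak and positive outside. Positions inside are counted up to the midpoint of each peak, so farther inside only the wider peaks remain. H3K4me2 peaks at 71.3% 500 bp inside, and H3K4me1 at 3.87% 100 bp inside.

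Of the 1612 H3K4me3 peaks that met H3K4me1, 931 (57.8%, 55.3 to 60.1%) had it across 1 end and 49 (3.04%) across both. In 624 (38.7%) it lay in the interior only and in 8 it contained the peak. H3K4me1 covered the H3K4me3 midpoint in 74 of the 931 and in 112 of the 624. Within 2 kb outside the ends, 1992 H3K4me3 peaks (13.9%) had H3K4me1 on 1 side, 430 on both and 11902 (83.1%) on neither. It was on the left of 9.84% and on the right of 10.1% of all H3K4me3 peaks. Of the peaks flanked at all, 17.8% had H3K4me1 on both sides and, counted the same way, 14.0% had H3K4me2 on both, so listing on 1 side was common to both marks. At such low shares per side, unrelated sides would also be listed mainly on 1 side, so it is no sign of asymmetry. The sides did not look unrelated, however. The 430 peaks with H3K4me1 on both sides were more than unrelated sides with these shares would give. The same held for the 595 with H3K4me2 on both, at 16.6% on the left and 17.3% on the right. The source of this was not tested. The 1793 H3K4me1 peaks over H3K4me3 overlapped H3K4me2 as well in 75.9% of cases (73.9 to 77.8%), and had a median score of 135, close to the 142 of those away from H3K4me3.

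H3K4me3 peaks with H3K4me1 carried H3K4me2 more often than those without. On the autosomes the shares were 95.8% of 1610 (94.7 to 96.7%) and 89.1% of 12236 (88.6 to 89.7%). The gap was wide among H3K4me3 peaks with a score below 3100, 91.0% (88.7 to 92.9%) against 74.7% (73.5 to 76.0%), and small among those at the ceiling, 99.7% against 98.2%. These intervals cover counting error only, and no test was made between the groups. The H3K4me3 peaks with H3K4me1 were also wider in both groups, with medians of 1084 against 984 bp below the ceiling and 2473 against 2149 bp at it, and the part of width was not tested. H3K4me1 itself was spread differently over H3K4me3 widths than H3K4me2. The share of H3K4me3 peaks with H3K4me2 rose from 39.0% at up to 500 bp to 98.8% above 4000 bp, whereas the share with H3K4me1 stood at 8.09% and 18.0%, with 9.47% over 1500 and up to 2000 bp.

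In the 1578 regions with all marks, H3K4me3 covered a median of 94.6% of the region, H3K4me2 65.7% and H3K4me1 20.4%. H3K4me3 set 57.4% of the 3156 outer ends of these regions, H3K4me1 30.3% and H3K4me2 12.6%. In 1546 of them with a single H3K4me3 peak, the nearest H3K4me2 midpoint lay closer to the H3K4me3 midpoint than the nearest H3K4me1 midpoint in 1458 (94.3%, 93.0 to 95.4%). These regions held 2843 H3K4me2 peaks and 1757 H3K4me1 peaks, and the nearest of more peaks is closer by number alone. In the 614 with exactly 1 peak of each mark, a subset chosen after the values were seen, the count was 568 (92.5%, 90.2 to 94.3%). Median distances of all peaks from that midpoint were 477 bp for H3K4me2 (quartiles 174 and 858 bp) and 788 bp for H3K4me1 (quartiles 461 and 1219 bp). The order from the centre outward was therefore H3K4me2 and then H3K4me1 in most of these regions.

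The widest region with all marks was on chromosome 15 (76024168 to 76039672, 15505 bp). Its H3K4me3 peak spanned 76024296 to 76038563. H3K4me1 lay across its left end, from 76024168 to 76026065 with a score of 1187.21. Past its right end stood another H3K4me1 peak (76038808 to 76039672, score 423.51), joined to the region by an H3K4me2 peak from 76038065 to 76039058. The 7 H3K4me2 peaks covered 12805 bp, the first from 76025316 to 76029280 with a score of 3124.15, and 4 weaker H3K4me1 peaks lay between the flanks. The next, again on chromosome 15 (85498989 to 85513215), had 11 H3K4me2 peaks and only 2 H3K4me1 peaks over 569 bp, the stronger scoring 137.77. On chromosome 3 (88419562 to 88430316) 10 H3K4me2 peaks covered 8278 bp and 2 H3K4me1 peaks 922 bp. The regions on chromosome 11 (70464255 to 70473195) and chromosome 15 (102791656 to 102799945) each had 3 H3K4me2 peaks, covering 6091 and 7625 bp, and 1 H3K4me1 peak, covering 560 and 286 bp. In all 5 regions H3K4me1 covered the least length. With scores of 200 or more, those at 85498989 and at 102791656 no longer held H3K4me1.

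The 5 highest-scoring H3K4me1 peaks over both other marks varied in layout. The highest-scoring one, on chromosome 15 (72985695 to 72988771, 3077 bp, score 1837.82), overlapped H3K4me3 over 565 bp and H3K4me2 over 199 bp at its left end only, and that H3K4me3 peak had a score of 117.55. On chromosome 8 (87264769 to 87267100, score 999.28) H3K4me2 covered 1292 of the 2332 bp and contained an H3K4me3 peak from 87266184 to 87267020, so that H3K4me3 was innermost there. On chromosome 10 (79620870 to 79622553, score 972.72) H3K4me2 covered 787 bp and H3K4me3 499 bp. On chromosome 15 (74552641 to 74554584, score 815.03) they covered 260 and 589 bp, and the peak lay across 1 end of an H3K4me3 peak with a score of 3100. The remaining one is the left flank of the widest region above. In 3 of these 5, the first and those on chromosomes 8 and 10, the H3K4me3 score lay between 117.55 and 337.92. With scores of 200 or more, the first and the one on chromosome 10 were no longer over H3K4me3.

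Most H3K4me1 peaks lay far from the other marks. The 18871 peaks without H3K4me3 were a median of 21581 bp from the nearest H3K4me3 peak, edge to edge (quartiles 7013 and 54501 bp), and 12913 H3K4me1 peaks, 62.5% of the list, were over 10 kb away. To H3K4me2 the median was 15816 bp (quartiles 3921 and 44418 bp, n = 18519). Counting overlaps, 15.1% of H3K4me1 peaks were within 1 kb of H3K4me3 and 21.7% within 1 kb of H3K4me2. H3K4me2 and H3K4me3 gave a curve of another shape: 89.5% of H3K4me2 peaks overlapped H3K4me3, and extending the reach to 10 kb added only few, to 93.9%. From H3K4me3 peaks the nearest H3K4me1 was a median of 46352 bp away where they did not overlap.

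**Figure D4:**
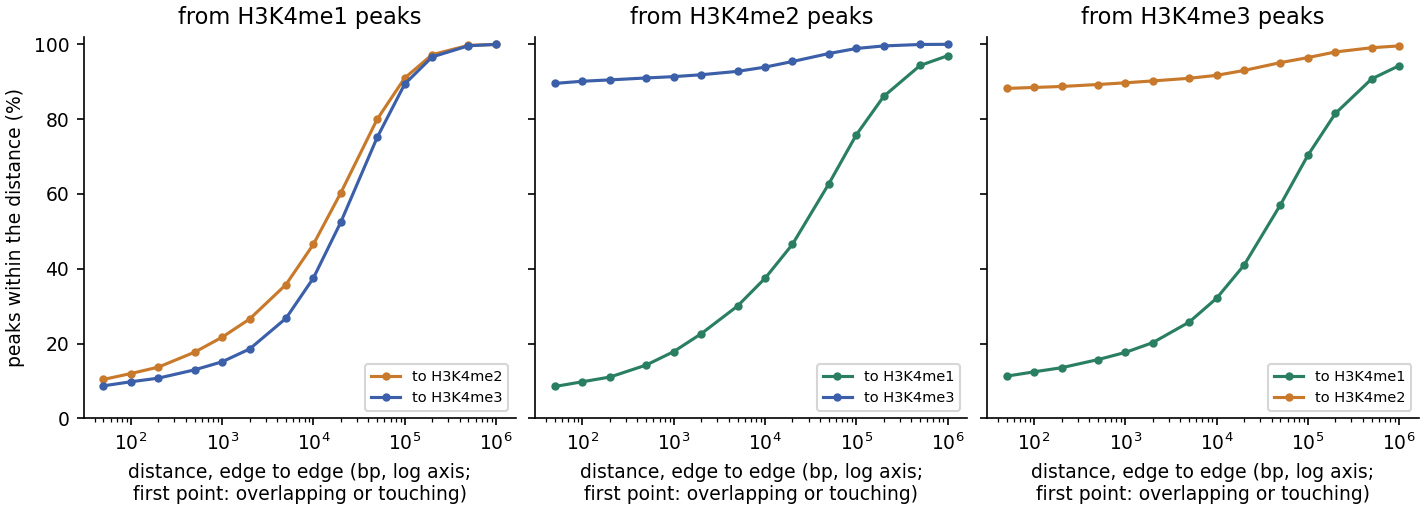
Cumulative share of peaks (in %) with a peak of another mark within the distance on the log axis (bp), from H3K4me1 (left), H3K4me2 (middle) and H3K4me3 peaks (right). Curves between H3K4me2 and H3K4me3 start near 90% and stay flat, and those from or to H3K4me1 start at 8.51 to 11.3% and climb mainly beyond 1 kb.

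H3K4me2 on H3K4me1 peaks fell off with distance from H3K4me3. Of the 883 H3K4me1 peaks that lay 1 to 500 bp outside an H3K4me3 peak, 16.1% overlapped H3K4me2 (13.8 to 18.7%). Farther out, up to 1000 bp, it was 7.87% (5.71 to 10.7%, n = 445), over 2 and up to 5 kb 5.09% (4.14 to 6.24%, n = 1691) and beyond 10 kb 2.97% (2.69 to 3.28%, n = 12913). Median widths of these H3K4me1 peaks stayed between 367 and 403 bp and median scores between 138 and 151. The fall in H3K4me2 therefore came without a matching change in the width or score of the H3K4me1 peaks. Over all positions outside H3K4me3 ends, H3K4me2 also fell, from 4.95% at 100 bp to 1.98% at 5000 bp. A fall with distance was thus not particular to H3K4me1 peaks. Between an H3K4me1 peak 1 to 500 bp away and its H3K4me3 peak, H3K4me2 was listed in the gap in 28.2% of cases (25.3 to 31.3%). This share was similar farther out, 29.7% over 2 and up to 5 kb and 29.0% up to 10 kb. Gaps farther out are longer, so similar shares do not mean as much H3K4me2 per length, which was not measured. A separate H3K4me2 peak, not overlapping H3K4me3, lay in the gap in 5.66% of cases at the nearest distance and in 16.6% up to 10 kb.

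The score of an H3K4me2 peak went with its location, and that of an H3K4me1 peak did so far less. With the H3K4me2 list cut by score into 10 equal parts, 99.8% of peaks in the highest part overlapped H3K4me3 and 16.9% overlapped H3K4me1. The share over H3K4me3 was 94.8% in the fifth part and 67.1% in the lowest. Over H3K4me1 it was 5.32% in the fourth part and 10.2% in the lowest, so H3K4me1 was met most at both ends of the score range. For H3K4me1, the share over H3K4me3 ranged from 7.21% in the highest part to 10.5% in the ninth, and that over H3K4me2 from 14.1% in the highest to 8.42% in the lowest. Median widths fell with score as well, from 1330 to 281 bp for H3K4me2 and from 867 to 268 bp for H3K4me1. A wider peak meets another mark more easily, and the part of width was not tested.

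Outside H3K4me3 there were 2561 H3K4me2 peaks, narrow (median 360 bp) and low in score (median 139, against 290 over H3K4me3). H3K4me1 was met by 689 of them, and these lay a median of 11563 bp from H3K4me3. The 1872 with neither mark lay 16560 bp away. The strongest was on chromosome 5 (140384056 to 140385177, 1122 bp, score 1071.02), 80789 bp from H3K4me3, with 2 weak H3K4me1 peaks over 480 bp. The next were on chromosome 12 (101202602 to 101204406, score 868.23, H3K4me1 over 356 of 1805 bp) and chromosome 1 (23768778 to 23770120, score 862.8, no H3K4me1 within 557001 bp). The peak on chromosome 2 (93173761 to 93174708, score 718.1) had H3K4me1 over 508 of 948 bp. The H3K4me1 peaks at the sites on chromosomes 5 and 2 scored below 200, at most 111.81 and 184.65, and drop out under that threshold. That on chromosome 4 (125787539 to 125788897, score 685.81) had H3K4me1 53 bp beside it. Among such peaks over H3K4me1, further ones stood on chromosome 13 (99160588 to 99161618, score 593.89) and chromosome 15 (82042560 to 82043271, score 569.13, H3K4me1 over 569 of 712 bp).

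The highest-scoring H3K4me1 peaks with neither other mark lay at various distances from them. As a class, H3K4me1 peaks with neither mark did not score high: their median was 141, against 173 for those over H3K4me2 only, 130 over H3K4me3 only and 138 over both. The top peak of the list, on chromosome 15 (77651680 to 77656341, 4662 bp, score 2308.32), was 4440 bp from H3K4me2 and 11032 bp from H3K4me3. A second strong peak on that chromosome (77631080 to 77634353, score 1638.5) was 11765 bp from H3K4me2. On chromosome 11 (117173916 to 117176541, 2626 bp, score 1888.19) H3K4me2 began 191 bp away and H3K4me3 42862 bp away. On chromosome 10 (80128105 to 80130030, score 1570.34) these distances were 51 and 5454 bp. On chromosome 8 (96376644 to 96379749, score 1367.86) both marks were over 40 kb away. Strong H3K4me1 without overlap was therefore seen both next to H3K4me2 and far from any other peak.

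Chromosomes differed most in H3K4me1. The share of H3K4me3 peaks with H3K4me1 ran from 4.15% on chromosome 7 (n = 1011) and 4.79% on chromosome 13 to 19.5% on chromosome 10 and 31.4% on chromosome 15 (n = 643), with a mean over autosomes of 11.5% ± 6.40 (SD, n = 19 autosomes). The number of H3K4me1 peaks per H3K4me3 peak was 0.688 on chromosome 7 and 3.13 on chromosome 15, the lowest and highest of the autosomes. Over the 19 autosomes it went with the share of H3K4me3 peaks that had H3K4me1 (Spearman's rho 0.804) and with the share that had H3K4me2 (rho 0.728). The first relation is partly built in, since more H3K4me1 peaks per H3K4me3 peak leave more to overlap. The number of H3K4me2 peaks per H3K4me3 peak likewise went with the share that had H3K4me2 (rho 0.812). These are descriptions of autosomes that share the same 3 libraries. The share with H3K4me2 had a narrower range, 89.8% ± 3.17 (SD, n = 19 autosomes). The placement of lone H3K4me2 peaks varied little, with an SD of 0.0379 over autosomes.

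Chromosome X stood apart from the autosomes. It held 453 H3K4me3 peaks, 3.16% of the list, but 229 H3K4me2 peaks (0.937%) and 21 H3K4me1 peaks (0.102%). H3K4me2 was met by 37.5% of its H3K4me3 peaks (33.2 to 42.1%), against 89.9% on the autosomes (89.4 to 90.4%), and H3K4me1 by 2 of 453 against 11.6%. H3K4me3 peaks on X also scored lower: 32.7% were at the ceiling, against 60.7% on the autosomes, and their median width was 1549 bp against 1745 bp. Among H3K4me3 peaks at the ceiling alone, 51.4% of 148 on X met H3K4me2 (43.4 to 59.3%) and 98.3% of 8402 on the autosomes did. Where H3K4me2 was present it covered a median of 28.4% of the H3K4me3 peak on X and 60.9% on the autosomes. Of the 213 H3K4me3 peaks at the ceiling without H3K4me2, 72 were on X. H3K4me1 and H3K4me2 come from another experiment than H3K4me3, and the source of the difference on X, its copy number included, was not tested.

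**Figure D5:**
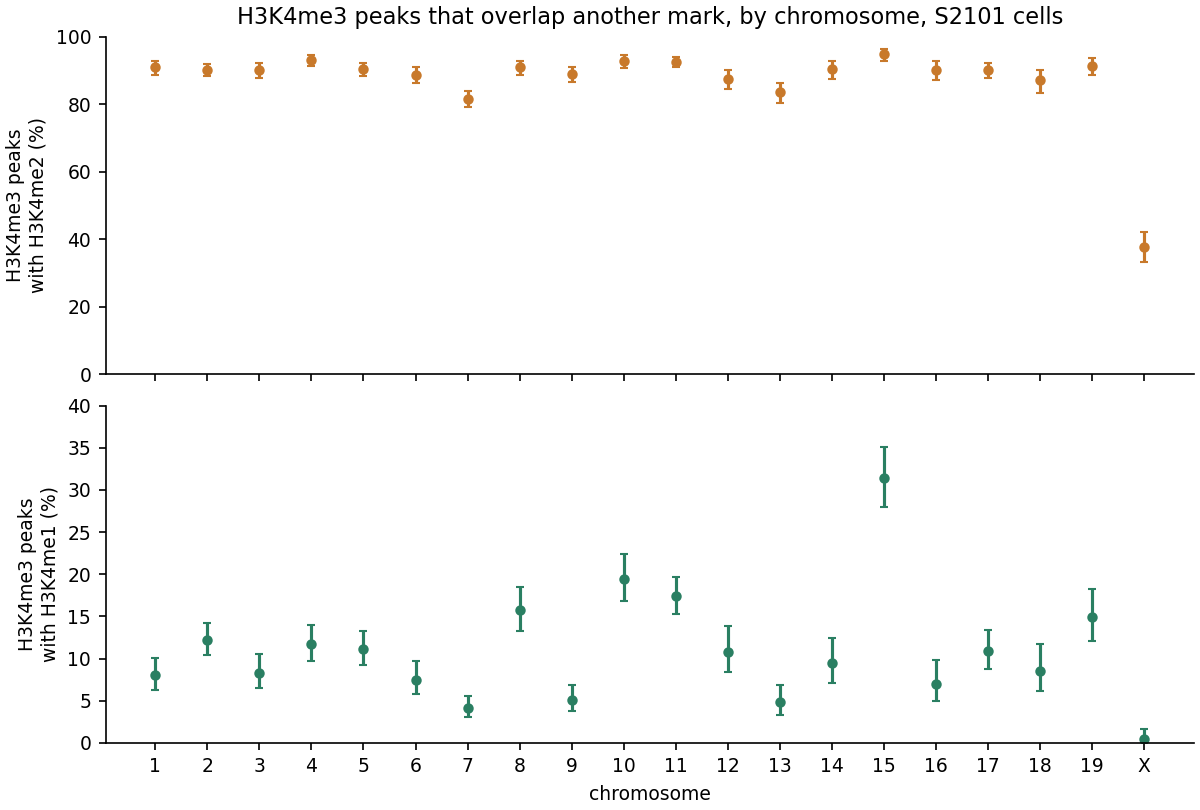
Share of H3K4me3 peaks (in %) that overlap H3K4me2 (upper panel) and H3K4me1 (lower panel, with a shorter axis) on each chromosome, with 95% Wilson intervals for counting error as bars. Chromosome X is lowest in both panels (37.5% and 0.442%), and chromosome 15 is highest in both (94.9% and 31.4%).

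Of the 5 widest H3K4me3 peaks without H3K4me2, 4 were on chromosome X. They lay at 6891691 to 6896980 (5290 bp), 39501698 to 39506286 (4589 bp), 71209460 to 71213796 (4337 bp) and 133273423 to 133277623 (4201 bp), all with a score of 3100, and the nearest H3K4me2 peak was between 41567 and 565894 bp away. The other was on chromosome 9 (91256525 to 91260918, 4394 bp, score 3100), 884116 bp from H3K4me2 and 908843 bp from H3K4me1. Such peaks were an exception in width: the 1692 H3K4me3 peaks without H3K4me2 had a median of 814 bp and a median score of 323, against 1837 bp and 3100 for those with it.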

How the data were processed

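The 3 peak lists of the S2101-treated samples were read as deposited (chromosome, start, end, name and score). Peaks were called with MACS within Galaxy, per the file headers, 1 list per library. The submitters' processing notes name Bowtie2, deepTools and the build mm9. The score is the authors' value for each peak as deposited, from 100 to 3233.06, with 8431 H3K4me3 peaks at exactly 3100. Settings of the aligner and caller, the input, duplicate handling and library depth were not found in the labels or headers, so depth is unknown and nothing was scaled for it. A shallower or less enriched library can give fewer, narrower or split peaks.

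Overlaps (at least 1 bp), containment, shared bases, edge-to-edge distances and coverage in steps of 100 bp were computed in Python 3.11.15 with numpy 2.4.6, pandas 2.3.3 and scipy 1.17.1, and drawn with matplotlib 3.10.9. The interval functions were checked against bedtools 2.31.1 on simulated lists. Scores below and at the ceiling were split at 3100. No peak was left out, including 8 H3K4me1, 22 H3K4me2 and 25 H3K4me3 peaks off the assembled chromosomes. Per rule, 5 regions were named, by rules on width, score or number of H3K4me2 peaks within combinations of marks. Alternatives were a score of 200 or more, lists of equal length, chromosomes 7 and 15 left out, and other overlap, nesting, placement, distance and joining rules. The score threshold left lists of unequal length, with 5315 H3K4me1, 15646 H3K4me2 and 13034 H3K4me3 peaks. The comparison of marks, the lists and the alternatives were chosen with earlier results of these data known. The vehicle lists, inputs and H3 samples were not used here.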

Additional observations from a re-analysis of the deposited data

How the results depend on the processing

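Of 58 values under alternative settings for the 12 main results, 20 stayed within the counting interval of the deposited lists (for shared bases, within 1 SD over autosomes) and 38 did not. With scores of 200 or more, H3K4me2 peaks overlapped H3K4me3 in 94.6% of cases and H3K4me1 in 2.21%, H3K4me3 peaks overlapped H3K4me2 in 79.5% and H3K4me1 in 2.41%, and H3K4me1 peaks overlapped H3K4me3 in 6.19% and H3K4me2 in 6.59%. In these lists 83.4% of H3K4me2 peaks lay wholly inside H3K4me3, the placement median was 0.525, 29.1% of H3K4me3 peaks held 2 or more H3K4me2 peaks, 94.5% of H3K4me2 bases lay in H3K4me3, the distance from H3K4me1 to H3K4me3 was 20358 bp, and 1.55% of regions held all marks. With lists of equal length (14324 peaks each), the same values in the same order were 97.4%, 5.79%, 71.3%, 7.45%, 8.15%, 6.16%, 84.3%, 0.532, 22.7%, 96.3%, 20840 bp and 3.32%. Counting only peaks covered to 50% or more, the 6 overlaps were 88.3%, 3.60%, 60.9%, 0.880%, 6.39% and 6.71%. Requiring 90% of the peak inside gave 84.0% for H3K4me2 in H3K4me3, and taking all H3K4me2 peaks wholly inside gave a placement median of 0.661. Midpoint distances gave 22964 bp, and joining peaks up to 1000 bp apart put all marks in 8.44% of regions. Without chromosomes 7 and 15, H3K4me1 overlapped H3K4me2 in 9.87% and H3K4me2 overlapped H3K4me1 in 7.99% of cases. On autosomes only, an alternative added after chromosome X had been seen, 89.9% of H3K4me3 peaks overlapped H3K4me2 and 49.4% held 2 or more H3K4me2 peaks. The order of the pairs, with H3K4me2 and H3K4me3 overlapping far more than either with H3K4me1, was the same in these settings, while the placement of lone H3K4me2 peaks crossed even placement. Of the 35 entries of the naming rules, some regions being named by more than 1 rule, 24 held the same number of marks with scores of 200 or more and 31 with lists of equal length. No paired analysis was possible because each mark has 1 library. Unknown depth limits all counts, since a mark that is not listed may be present below the caller's threshold.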
